A study of Mus musculus with 16 samples.

Results

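Immature medullary thymic epithelial cells (mTEC) of 2 mouse cohorts were compared, the Rbfox1 line and the Rbfox2 line. All 8 immature libraries of the 16 in the series were used, 4 from each line, and their labels put each library in its line. All mice of the Rbfox1 line were Rbfox1 lox/lox and all mice of the Rbfox2 line were Rbfox2 lox/lox, controls included. Knockout (tKO) mice also carried Foxn1 wildtype/cre, in which Cre is made from the Foxn1 locus of thymic epithelial cells, and control mice were Foxn1 wildtype/wildtype. Each line gave 2 tKO and 2 control mice, 1 female and 1 male of each, and each library came from 1 mouse. The labels give the strain as C57BL/6 and an age of 4 to 6 weeks, and the methods describe a mixed background with 129S2/Sv. From each mouse 10000 cells were sorted that lacked CD45 and Ly51, carried EPCAM, bound the lectin UEA and had low MHC class II. No label gives a litter, a day of sorting or a day of sequencing, so the line cannot be told apart from these. The methods describe controls that were littermates of the same sex as the tKO mice, so the 4 mice of a line may not be independent. The control and tKO mouse with the same number in a line were of the same sex, and with their counts summed, 2 sums against 2, 719 genes passed both thresholds given below.

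Medullary TEC display proteins of other tissues to developing T cells, and thymocytes that bind them strongly are deleted or diverted. Cells with low MHC class II include progenitors and cells that make the chemokine CCL21, while high MHC class II, CD80 and the regulator AIRE mark the mature stage. Cells that have passed the AIRE stage, and thymic tuft cells, can again have low MHC class II. A bulk library of this gate is therefore a mixture, in which fewer cells of a type and less RNA per cell cannot be told apart.

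Total counts ran from 1908725 to 2430287 in the Rbfox1 line and from 1506134 to 1973826 in the Rbfox2 line. By the column names every immature library had been down-sampled to 10000000, so these totals reflect the share counted in genes. Why that share tended to be lower in the Rbfox2 line was not tested. The first axis of a multidimensional scaling plot placed all 4 Rbfox1 line libraries on the other side of 0 from all 4 Rbfox2 line libraries. Transcripts of Y-linked genes were found in males and not in females. Epcam, the surface protein used for sorting, had 731, 771, 747 and 742 CPM (counts scaled to a library of 1000000 and by TMM) in the Rbfox1 line and 721, 791, 709 and 779 CPM in the Rbfox2 line. The order of libraries is the same for every gene below: control 2, control 3, tKO 2 and tKO 3 of the Rbfox1 line, then control 1, control 2, tKO 1 and tKO 2 of the Rbfox2 line. Log2 fold changes are given as Rbfox1 line minus Rbfox2 line, with the standard error (SE).

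Across 12627 genes tested with edgeR's quasi-likelihood test, 599 differed between the lines by more than 2-fold with an adjusted p (Benjamini-Hochberg) under 0.05, or 4.74%. Of these, 371 (2.94%) were higher in the Rbfox1 line and 228 (1.81%) in the Rbfox2 line. By the adjusted p alone 3030 genes (24%) differed, 12.4% higher in the Rbfox1 line and 11.6% in the Rbfox2 line. Members of gene lists are counted below by the adjusted p alone and are read against these shares. The median log2 fold change over all genes was -0.0018. It moved with exon length, from -0.10 in the 3119 genes with the shortest exon sequence to 0.08 in the 3119 with the longest, and from -0.10 to 0.11 in mature mTEC. Scaling within 20 bins of exon length gave 595 genes, 556 of them among the 599.

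The targeted genes were looked at first. Rbfox2 had 108, 114, 100 and 119 CPM in the Rbfox1 line, and 104 and 92.9 CPM in the controls but 37.6 and 23.3 CPM in the tKO mice of the Rbfox2 line. Its line difference thus rested on the Rbfox2 tKO mice, and Rbfox2 was the 1 gene of 13060 (0.00766%) whose line difference depended on genotype (interaction 1.66, SE 0.24, edgeR adjusted p = 0.039). At an unadjusted p under 0.05 there were 578 such genes, and DESeq2 called 2 by its adjusted p. The edgeR call became 0 without Rbfox1 control 3, Rbfox1 tKO 2, Rbfox1 tKO 3, Rbfox2 control 1 or Rbfox2 tKO 2, left out in turn. Rbfox1 had 162, 159, 149 and 153 CPM in the Rbfox1 line and 117, 114, 122 and 105 CPM in the Rbfox2 line. All 4 Rbfox1 line libraries were above all 4 of the other line (0.44, SE 0.08, edgeR adjusted p = 0.00075). Rbfox1 tKO mice thus kept 149 and 153 CPM, so this count over the whole gene does not check the deletion. Foxn1, the driver locus, was 0.28 (SE 0.09) higher in the Rbfox1 line, with values that overlapped.

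Genes of the mature, AIRE-expressing stage were higher in the immature gate of the Rbfox1 line. Aire, which switches on many tissue-restricted genes, had 212, 296, 255 and 211 CPM in the Rbfox1 line and 40.4, 35.5, 19.5 and 53.5 CPM in the Rbfox2 line. Every Rbfox1 line library was above every Rbfox2 line library, with a log2 fold change of 2.71 (SE 0.17, edgeR adjusted p = 5.1e-09). Cd80, a costimulatory ligand used to mark mature mTEC, had 31.9, 34.5, 28.3 and 29.1 CPM against 12.7, 4.14, 8.35 and 11.7 CPM (1.74, SE 0.23). Icosl, another costimulatory ligand, had 28.1, 34.5, 25.1 and 27.5 CPM against 8.5, 10.7, 10.4 and 8.23 CPM (1.61, SE 0.19). In the list of this stage 12 of 24 tested genes were higher in the Rbfox1 line and 3 in the Rbfox2 line, with a median of 0.28. Also higher were Utf1 (1.11) and Cdx1 (0.92), transcription factor genes, Fgf21 (0.80), Cd40 (0.59), Fezf2 (0.51), a second regulator of tissue-restricted genes, and Ciita (0.54), the transactivator of MHC class II. The summed level of the list was 15964 to 18144 CPM in the Rbfox1 line and 16198 to 18490 CPM in the Rbfox2 line, which overlapped.

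Genes of the MHC class II chains did not follow. Cells of both lines had been sorted for low MHC class II, so the gate itself may hold these genes at like levels, which was not tested. H2-Aa, an alpha chain of MHC class II, had 2296, 2468, 2406 and 2136 CPM in the Rbfox1 line and 2650, 2599, 2497 and 2893 CPM in the Rbfox2 line, and was lower in the Rbfox1 line by a log2 of -0.19 (SE 0.06). H2-Ab1 was lower too (-0.24, SE 0.06), and Mill1, a class I-like gene, was lower with overlapping values (-0.29, SE 0.09). These were the 3 list members higher in the Rbfox2 line, and with library totals in place of TMM none of the list was. Cd74, the invariant chain, did not pass the test (-0.12, SE 0.07). Set against the mature library of the same mouse, Aire in the immature library, as CPM of library totals, was 14.4% to 18.5% in the Rbfox1 line and 2.76% to 6.03% in the Rbfox2 line. For H2-Aa these shares were 52.1% to 56.7% and 48.1% to 56.1%, which overlapped.

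**Figure D1:**
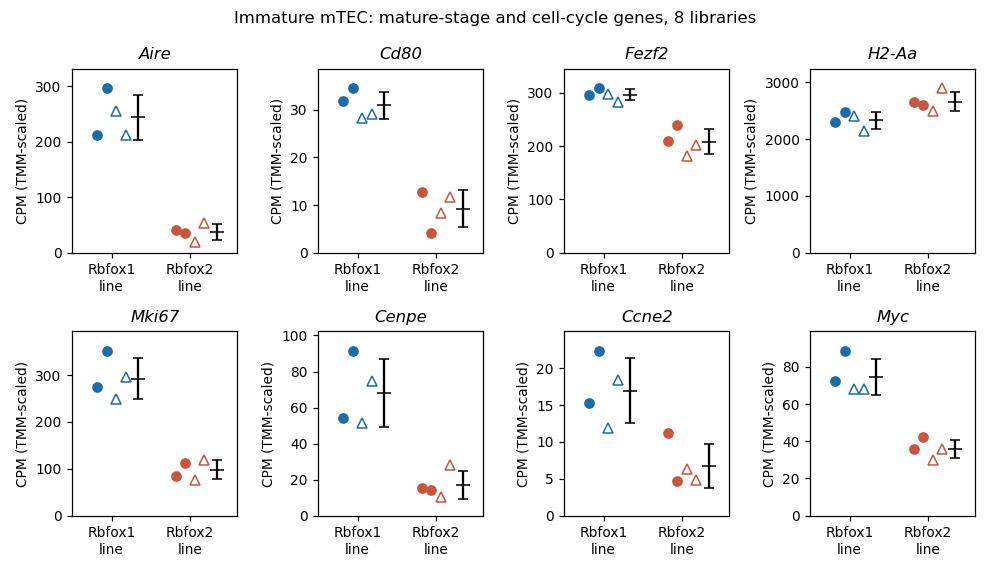
CPM (linear axis from 0) of 8 genes in the 8 immature libraries, by line. Filled circles are control mice, open triangles tKO mice, and the black mark with bar is the mean with SD of 4 libraries. Aire, Cd80, Fezf2, Mki67, Cenpe, Ccne2 and Myc do not overlap between the lines, and H2-Aa is lower in the Rbfox1 line.

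Genes of cell division were higher in the Rbfox1 line. Of the G2 and M phase list, 21 of 21 tested genes were higher there, 18 of them more than 2-fold, with a median log2 fold change of 1.19 against -0.0018 over all genes. The summed level of the list was 1230 to 1869 CPM in the Rbfox1 line and 437 to 704 CPM in the Rbfox2 line. Mki67, the proliferation marker Ki-67, had 275, 351, 249 and 295 CPM against 85, 112, 75.9 and 119 CPM (1.58, SE 0.13, edgeR adjusted p = 7.1e-08). Cenpe, a kinesin of the kinetochore, had 54.4, 91.3, 51.5 and 75.0 CPM against 15.4, 14.2, 10.4 and 28.1 CPM (2.01, SE 0.24). Aurkb (1.48) and Bub1 (1.32), kinases of the chromosomal passenger complex and the spindle checkpoint, Birc5 (1.45) and Kif11 (1.29), a spindle motor, did not overlap between the lines either. Members with short and with long exon sequence, split at the median of 4470 bases over all genes, had medians of 1.17 and 1.22. In control mice alone 20 members passed, and in tKO mice alone, 2 against 2, 12 did.

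Mki67, Kif11, Top2a and Cdk1 are shown by short stretches of their promoters, since the list moved as a group and its genes are known to share promoter elements bound by the factor NF-Y and by cell cycle repressor complexes. The motifs CCAAT and TTTGAA were searched on both strands in the 250 bases before the start that RefSeq gives for GRCm38.p6, the first listed where a gene has several. A promoter was matched for 18 of the 21 genes. CCAAT was found in 16 of these (88.9%), against 34.5% of 27025 promoters of all genes, and TTTGAA in 6 (33.3%), against 16.3%. The genes shown all have both motifs, which only 6 of the 18 do (33.3%, against 5.73% of all promoters). They therefore do not stand for the list, and Cenpe, for example, had CCAAT without TTTGAA. In the fibroblast list, which differed in the other direction, CCAAT was in 1 of 11 promoters (9.09%) and TTTGAA in 4 (36.4%), a higher share than in the G2 and M phase list. The stretches run 5′ to 3′ in the direction of the gene, with the motif or its reverse complement in capitals. They lie at chr7:135716506-135716530 and chr7:135716480-135716505 (minus strand) for Mki67, chr19:37376327-37376351 and chr19:37376353-37376378 (plus strand) for Kif11, chr11:99024253-99024277 and chr11:99024353-99024378 (minus strand) for Top2a, and chr10:69352978-69353002 and chr10:69352968-69352993 (minus strand) for Cdk1.
Mki67 CCAAT: gccgcctggcCCAATcgcagcactt
Mki67 TTTGAA: agcgccagaaTTTGAAccgccgtttt
Kif11 CCAAT: ccgctctgctATTGGtccggtcagt
Kif11 TTTGAA: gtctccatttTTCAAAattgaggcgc
Top2a CCAAT: gcaaacagagCCAATgagagcgagt
Top2a TTTGAA: attggtccatTTTGAAgattctcccg
Cdk1 CCAAT: ctcagctctgATTGGctcctttgaa
Cdk1 TTTGAA: gattggctccTTTGAAcgtctacgtg
The shares are a description of letters in these windows and no test was made of them. Top2a, topoisomerase II alpha, was 1.22 (SE 0.12) higher in the Rbfox1 line, and Cdk1, the kinase that drives mitosis, was 1.0 (SE 0.21) higher.

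The S phase list showed the same direction with smaller differences. Of 20 tested genes 13 were higher in the Rbfox1 line and 0 in the Rbfox2 line, with a median of 0.51. Ccne2, a cyclin of the start of S phase, had 15.3, 22.3, 11.9 and 18.4 CPM against 11.2, 4.74, 6.26 and 4.80 CPM (1.30, SE 0.28). Hells, a chromatin remodeller, was 1.19 (SE 0.14) higher. Pcna (0.24, SE 0.09, edgeR adjusted p = 0.064) and the replication licensing factor gene Cdt1 (0.32, SE 0.18) did not pass. The count depended on which mice were used, with 14 genes in control mice alone and 4 in tKO mice alone. Myc, a growth regulator, had 72.7, 88.4, 68.0 and 68.4 CPM against 35.6, 42.0, 29.9 and 35.7 CPM, with no overlap (1.06, SE 0.12).

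In the RANK, CD40 and lymphotoxin beta receptor pathway to NF-κB, which drives mTEC maturation, 13 of 24 genes were higher in the Rbfox1 line and 1 in the Rbfox2 line, none more than 2-fold, with a median of 0.28. Tnfrsf11b, the decoy receptor for RANK ligand, was 0.85 (SE 0.15) higher, and Tnfrsf11a, RANK itself, 0.22 (SE 0.07). The ubiquitin ligase genes Traf6 (0.50), Birc2 (0.50) and Birc3 (0.39) and the kinase gene Ikbkb (0.49) were also higher, while Ltbr, the lymphotoxin beta receptor, was lower (-0.38, SE 0.09). The 13 genes fell to 8 without Rbfox2 control 2, to 7 in control mice alone and to 1 in tKO mice alone.

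Genes of the progenitor and CCL21-type immature stage were lower in the Rbfox1 line. Of 23 tested genes of the list 13 were higher in the Rbfox2 line and 1, Cyr61, in the Rbfox1 line, none more than 2-fold, with a median of -0.29. Krt5, a keratin of medullary epithelium, had 3460, 3482, 3557 and 3196 CPM in the Rbfox1 line and 4694, 4543, 4232 and 4447 CPM in the Rbfox2 line (-0.39, SE 0.06, edgeR adjusted p = 8.1e-05). Ackr4, a scavenging chemokine receptor, had 27.6, 32, 43.3 and 43.4 CPM against 62.7, 60.4, 64.0 and 69.3 CPM (-0.83, SE 0.12). Neither gene overlapped between the lines. Krt14 (-0.62), Igfbp4 (-0.72), Pdpn (-0.65) and Fst (-0.64) were lower by similar amounts, while the epithelial regulator Trp63 did not pass (-0.22, SE 0.10). In tKO mice alone 8 genes of the list passed, 7 of them among the 13. The gene Ccl21a on chromosome 4 had too few counts to be tested. Of the cortical TEC list 6 of 14 genes were higher in the Rbfox2 line and 0 in the Rbfox1 line, Cxcl12 among them (-0.74, SE 0.10), and Psmb11, the proteasome subunit particular to cortical TEC, did not pass (-0.33, SE 0.23). Prss16 (-0.05), Ccl25 (-0.01) and Tbata (0.22), other genes of cortical TEC, did not pass either. Cxcl12 and Gas1 (-0.83), which passed, are also made by fibroblasts. The summed level of the fibroblast list, given below, was higher in the Rbfox2 line as well, and its part in the cortical and progenitor lists was not tested.

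Tuft cell genes were higher in the Rbfox2 line. Tuft cells are chemosensory cells that use taste receptor signalling and make leukotrienes. Of 26 tested genes 15 were higher in the Rbfox2 line, 6 more than 2-fold, and 0 in the Rbfox1 line, with a median of -0.67. The summed level of the list was 1272 to 2094 CPM in the Rbfox1 line and 1878 to 2259 CPM in the Rbfox2 line, which overlapped. Rgs13, a regulator of G protein signalling, had 17.9, 18.7, 27.8 and 35.2 CPM in the Rbfox1 line and 65.8, 71.0, 71.7 and 46.6 CPM in the Rbfox2 line (-1.40, SE 0.18, edgeR adjusted p = 3.1e-05). The leukotriene genes Alox5ap (-1.24), Ltc4s (-1.12) and Alox5 (-0.80) and the kinase gene Bmx (-1.12) were also lower in the Rbfox1 line without overlap. Pou2f3, the defining transcription factor, had 61.2, 43.8, 48.4 and 74.0 CPM against 59.5, 68.1, 62.6 and 68.6 CPM, which overlapped (-0.20, SE 0.14, edgeR adjusted p = 0.33). The channel gene Trpm5 passed with overlapping values (-0.50, SE 0.13). In tKO mice alone 6 genes of the list passed, against 17 in control mice alone. The tuft cell genes with short exon sequence had a median of -0.80 and those with long -0.22.

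Fibroblast genes had the largest median difference of the 38 lists. All 17 tested genes of the list were higher in the Rbfox2 line, 13 of them more than 2-fold, with a median of -1.72 and no overlap between the lines in any, where 11.5% of all genes had every Rbfox2 line library above every Rbfox1 line library. Their summed level was 3906 to 5415 CPM in the Rbfox1 line and 9471 to 11861 CPM in the Rbfox2 line. Pdgfra, a growth factor receptor of fibroblasts, had 9.78, 11.4, 16.4 and 13.3 CPM against 50.5, 55.1, 84.9 and 54.2 CPM (-2.26, SE 0.17, edgeR adjusted p = 3.3e-08). Lum, the matrix proteoglycan lumican, had 15.3, 24.7, 27.8 and 21.4 CPM against 127, 96.5, 143 and 112 CPM (-2.42, SE 0.15). Postn (-2.51), Bgn (-2.31), Col1a2 (-2.23) and Dpt (-2.21), which encode matrix proteins, lay in the same range, and Gsn (-1.16), Col6a1 (-0.81) and Mgp (-0.74) differed less. No gene of the list was at 0 in all libraries. The 17 genes also passed in control mice alone and in tKO mice alone.

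Endothelial genes were higher in the Rbfox2 line in 10 of 14 tested, 8 of them more than 2-fold, and in the Rbfox1 line in 0, with a median of -1.48. Pecam1, the endothelial adhesion molecule CD31, had 9.35, 25.2, 23.7 and 9.18 CPM against 66.9, 31.4, 95.4 and 59.7 CPM (-1.86, SE 0.29). Cldn5, a tight junction protein, had 1.27, 1.62, 2.28 and 0 CPM against 22.8, 4.74, 7.66 and 15.8 CPM (-3.22, SE 0.56), from few reads. The summed level was 169 to 335 CPM in the Rbfox1 line and 273 to 683 CPM in the Rbfox2 line, which overlapped. In control mice alone 3 genes passed and in tKO mice alone 12. Of the pericyte and smooth muscle list 5 of 7 were higher in the Rbfox2 line, while Rgs5 (-0.15) and Myh11 (0.21) did not pass. Of the thymocyte, B cell, dendritic cell and red blood cell lists 3, 2, 4 and 4 genes were tested and 0 passed in either direction. The part of these other cells in the remaining line differences was not tested.

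**Figure D2:**
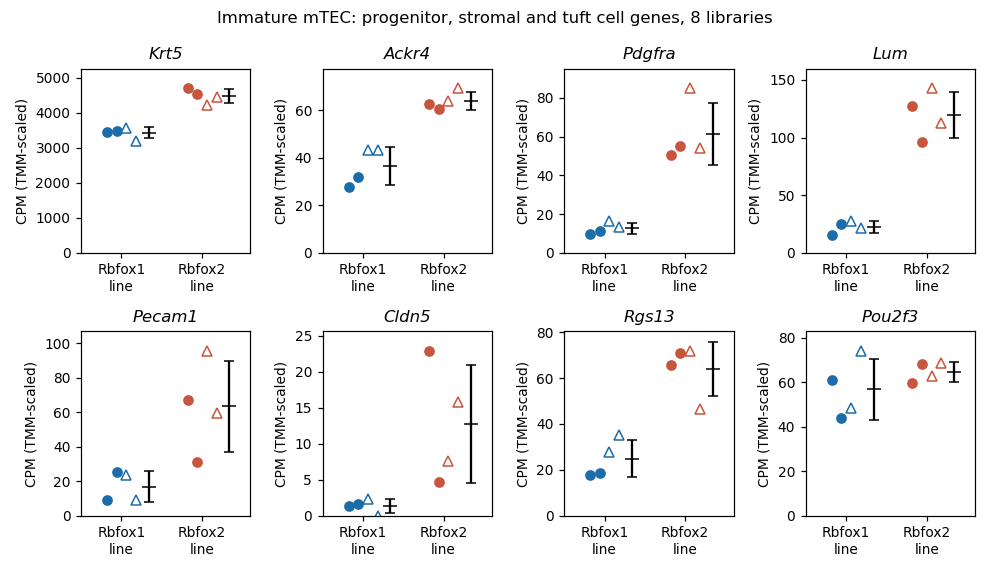
CPM (linear axis from 0) of 8 genes in the 8 immature libraries, by line, with symbols as in the plot of mature-stage and cell-cycle genes. Krt5, Ackr4, Pdgfra, Lum, Pecam1, Cldn5 and Rgs13 are higher in every Rbfox2 line library than in any Rbfox1 line library, and Pou2f3 overlaps.

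**Figure D3:**
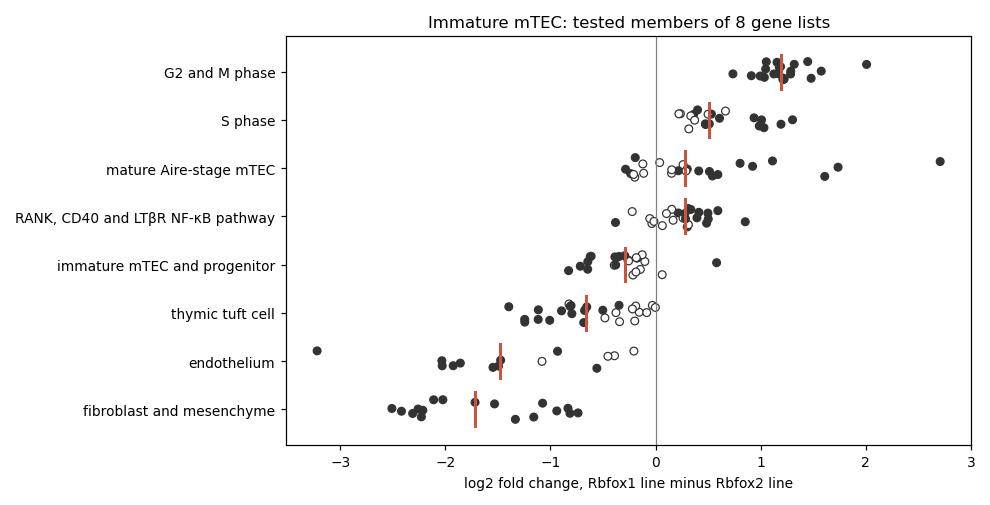
Log2 fold change between the lines for each tested member of 8 gene lists in immature mTEC. Filled points passed an adjusted p under 0.05, open points did not, and the vertical bar is the median of the list, from 1.19 for G2 and M phase to -1.72 for fibroblasts.

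The mature libraries of the same 8 mice served to ask which differences belonged to the immature gate. There 177 of 17398 genes (1.02%) passed both thresholds, and the line difference depended on the population for 1335 of 17442 genes (7.65%) by edgeR and 450 by DESeq2. Of the 599 genes that differed in immature mTEC, 362 passed this interaction, and 170 of the 582 tested in mature mTEC had an adjusted p under 0.05 there in the same direction. The 599 were selected for a large difference in the immature libraries, which also enter the interaction. A high share passing it was therefore built in by the selection. All 21 tested G2 and M phase genes passed the interaction. In mature mTEC 4 of them, Mki67, Top2a, Cenpe and Cenpf, were higher in the Rbfox1 line, with a list median of 0.02, where 7.22% of all genes were higher in the Rbfox1 line and 6.61% in the Rbfox2 line. The interaction was also passed by 14 fibroblast genes, 9 endothelial genes, 10 mature-stage genes and 4 tuft cell genes. By DESeq2 it was passed by 18 G2 and M phase, 14 fibroblast, 5 endothelial, 8 mature-stage and 0 tuft cell genes. Fibroblast and tuft cell genes also differed in mature mTEC, where 9 of 18 (median -0.45) and 9 of 26 (median -0.31) were higher in the Rbfox2 line, while 0 of 13 endothelial genes were. Aire was higher in the Rbfox1 line in mature mTEC as well (1.0, edgeR adjusted p = 9.7e-08), less than in immature mTEC (interaction 1.70). The mature-stage list as a whole was not. In mature mTEC 4 of its 26 tested genes were higher in the Rbfox1 line and 4 in the Rbfox2 line, with a median of -0.12. Utf1 was lower in the Rbfox1 line there (-0.40, SE 0.07). Rgs13 differed in both populations (-1.10 in mature mTEC), and its interaction did not pass (-0.31, edgeR adjusted p = 0.51).

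**Figure D4:**
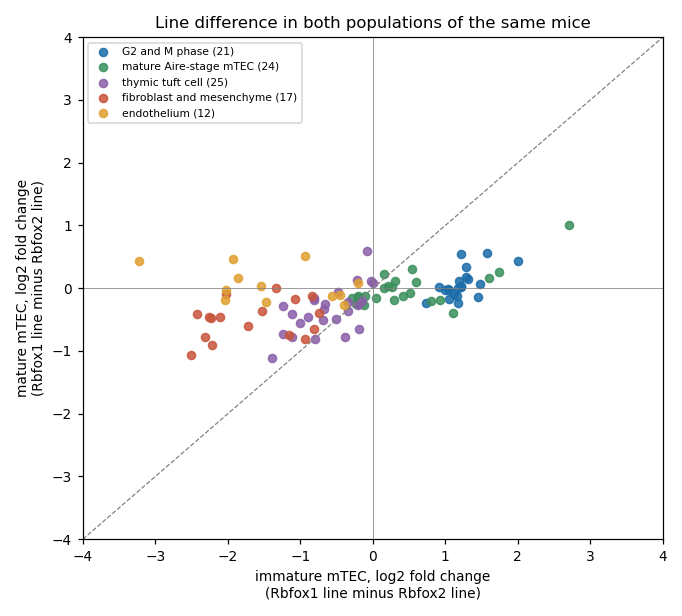
Log2 fold change between the lines in immature (horizontal axis) and mature mTEC (vertical axis) of the same mice, for the members of 5 lists tested in both; the number of genes is in the key and the dashed line marks equal differences. G2 and M phase genes lie to the right near 0 on the vertical axis, and fibroblast and endothelial genes lie to the left.

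Single genes with the largest differences came from these programmes and from outside them. The 12 in each direction were taken among protein-coding genes past both thresholds whose libraries did not overlap between the lines. Their separation was thus set by the choice. Of the 12 protein-coding genes furthest towards the Rbfox2 line, Cldn5, Col6a3 and Postn are endothelial or matrix genes, and Sod3 (-2.88, SE 0.15), an extracellular superoxide dismutase, had 8.50, 9.74, 14.6 and 12.2 CPM against 84.4, 58.0, 97.4 and 93.3 CPM. Of the 12 furthest towards the Rbfox1 line, Ccr10, a chemokine receptor, had 5.52, 7.30, 3.19 and 6.63 CPM against 1.06, 0, 0 and 0.686 CPM, from few reads. Slc2a6, a sugar transporter, had 19.1, 20.3, 20.5 and 21.9 CPM against 1.06, 7.70, 2.09 and 6.17 CPM (2.27, SE 0.34). Neither Ccr10 (-0.46) nor Slc2a6 (-0.07) was higher in the Rbfox1 line in mature mTEC.

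A few genes differed strongly in both populations. Apobec3, a cytidine deaminase that restricts retroviruses (GRCm38 chr15:79891659-79915906, plus strand), had 454, 466, 510 and 452 CPM against 100, 69.3, 94.0 and 85.7 CPM (2.43, SE 0.10, edgeR adjusted p = 9.5e-12), and 2.73 in mature mTEC, where the difference was larger by the interaction test (-0.30, edgeR adjusted p = 0.039). Cbx7, a Polycomb protein (chr15:79915807-79971119, minus strand), had 87.5, 79.5, 85.8 and 87.2 CPM against 18.6, 18.4, 20.2 and 16.5 CPM (2.20, SE 0.12), and 2.07 in mature mTEC. The annotated genes overlap by 100 bases on opposite strands, and whether reads were counted by strand is not given. Gm13304, a predicted gene in the repeated Ccl21 region (chr4:42114817-42115917), had 11.9, 4.06, 11.9 and 4.59 CPM against 233, 216, 284 and 222 CPM (-4.86, SE 0.19), and -5.08 in mature mTEC. In the same region Gm21541 (chr4:41903610-41904743) was -4.33 (SE 0.48), and counts of both are uncertain because near-identical copies can split reads.

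Apobec3 and Cbx7 lie on the chromosome of Rbfox2. Within 5 Mb of Rbfox2 (chr15:77078990-77307004) 7 of 150 tested genes passed both thresholds, or 4.667%, near the 4.74% of all genes. Higher in the Rbfox1 line were Apobec3, Cbx7, Mfng (1.47) and Arc (1.26), and higher in the Rbfox2 line were Kdelr3 (-1.44), Ly6k (-1.92) and Cdc42ep1 (-2.33). In mature mTEC the differences of Arc and Ly6k were 1.64 and -1.73. Within 5 Mb of Rbfox1 on chromosome 16, 2 of 54 genes passed (3.704%), Abat and Smim22, both -1.33.

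**Figure D5:**
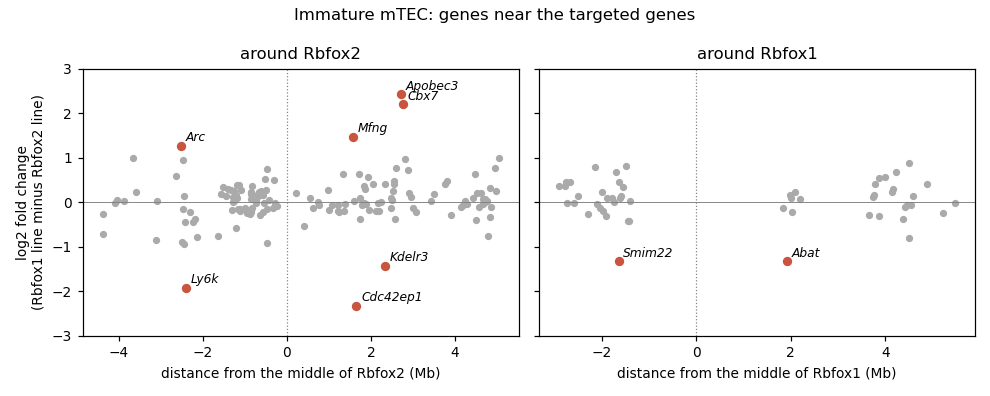
Log2 fold change between the lines (vertical axis) against distance in Mb from the middle of Rbfox2 (left) and Rbfox1 (right), for tested genes within 5 Mb of either end of the gene. Named points passed an adjusted p under 0.05 and a 2-fold difference, 7 near Rbfox2 and 2 near Rbfox1.

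More genes were detected in the Rbfox1 line. After each library was thinned to 1506134 counts, 20473, 20685, 20658 and 21280 genes had at least 1 count in the Rbfox1 line and 19344, 20064, 19896 and 19820 in the Rbfox2 line. The means of 20774 ± 350.2 and 19781 ± 309 (SD, n = 4) differed by 993 genes, with no overlap (exact two-sided permutation test, p = 0.0286, the smallest that 4 against 4 allows). If the 2 same-numbered mice of a line counted as 1 unit, 2 against 2 could not go below p = 0.333 by an exact permutation test. Of the 1999 genes held here of the study's classification, 229 were tissue-restricted antigens not regulated by AIRE. Of these 162, 159, 166 and 164 were detected against 144, 148, 144 and 149, without overlap, and of the 76 tested 20 were higher in the Rbfox1 line and 2 in the Rbfox2 line. Of 274 AIRE-regulated antigens 116, 134, 129 and 137 were detected against 101, 110, 103 and 116, where the lines touched at 116, and of the 35 tested 2 were higher in the Rbfox1 line and 5 in the Rbfox2 line. Of 1496 genes that are not tissue-restricted antigens 1425, 1431, 1427 and 1432 were detected against 1413, 1410, 1415 and 1423, also without overlap. Of these 1496, 1306 were tested, with 130 higher in the Rbfox1 line and 179 in the Rbfox2 line. Mean detection was thus wider in the Rbfox1 line in every class, but not by like shares. The means differed by 21.5 of 274 AIRE-regulated antigens, 16.5 of 229 antigens not regulated by AIRE and 13.5 of 1496 other genes. Most of the 1496 were detected in every library, which leaves little room for a difference.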

How the data were processed

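Counts of reads per gene were deposited by the authors in 1 table, without normalization, after removal of duplicate and unmapped reads and down-sampling of immature libraries to 10000000 by the column names. The submitters' processing notes name build mm10 and the tools Picard 2.10.9, featureCounts 1.6.0 and HISAT2 2.1.0; strand settings are not given in the sources used here. Symbols and positions came from GENCODE M21 for 53360 of 53464 Ensembl genes.

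The 8 immature libraries, which are separate mice, were fitted in edgeR 4.0.16 (R 4.3.3) with TMM, filterByExpr at a minimum count of 10 and line plus genotype (5 residual degrees of freedom). No test between the lines was stated in the methods. The 2 libraries of a condition differed by more than counting noise (chi-square 1.95 to 2.38 per degree of freedom). Population interactions used all 16 libraries with the mouse as block. The test was also tried on counts simulated from the mean levels and dispersions of these 8 libraries. Summed list levels are CPM of library totals. Low counts limit the precision: intervals were not computed, and SE cover the spread between mice.

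The members and the 38 lists were chosen with earlier results of these data known. Genes named were the targeted genes and Foxn1, and for each list its first gene and up to 6 members past both thresholds. Also named were genes past both thresholds within 5 Mb of the targeted genes, and 12 protein-coding genes in each direction. Those 12 had the largest differences among genes past both thresholds whose libraries did not overlap between the lines. Genes past the population interaction that also differed between lines were too many to name and are counted. Further list members, and H19, Firre and Gas5, were chosen after their values were seen. Alternatives were DESeq2 1.42.0, other scaling, filters, covariates and subsets of mice; thinning, summing of same-numbered mice and scaling by exon length or GC content were added after seeing the data.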

Additional observations from a re-analysis of the deposited data

Results flagged for a closer look

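Within the 4 libraries of a line, 1 library stood apart from the other three by Dixon's gap in 14 of 202 groups screened, and chance alone gives about 1 in 20. In the Rbfox1 line the lowest values were those of control 2 for Dpt (10.6 CPM) and of control 3 for Wnt4 (157 CPM), Nnt (58.8 CPM) and Rsph10b (4.06 CPM), and the highest were those of tKO 3 for Fos (472 CPM) and Arc (54.1 CPM). In the Rbfox2 line control 1 was highest for Isg15 (300.0 CPM) and Sema3g (31.3 CPM), control 2 was highest for Foxj1 (46.8 CPM) and Vegfa (37.3 CPM) and lowest for Tie1 (5.33 CPM), tKO 1 was highest for Pdgfra (84.9 CPM) and Nid1 (61.2 CPM), and tKO 2 was highest for Hba-a1 (44.6 CPM).

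The line difference in immature mTEC differed from that in mature mTEC of the same mice for 1335 genes by the interaction test, 812 with the Rbfox1 line higher and 523 with it lower in immature relative to mature mTEC. The balance depended on the setting, with 726 and 648 under DESeq2's size factors and 530 and 588 when every library needed 10 counts. Of the 105 named genes tested in this interaction, 62 passed, where 7.65% of all 17442 genes did. Many named genes had been chosen for their difference in immature mTEC, which raises their share. The difference between the lines also depended on genotype for Rbfox2, with an interaction of 1.66 on the log2 scale.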

How the results depend on the processing

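The 599 genes that differed between the lines became 917 with no filter, 278 when every library needed 10 counts, and 3030 by the adjusted p alone, and ranged from 562 to 662 when each library was left out. DESeq2's size factors, library totals (483 higher and 197 lower in the Rbfox1 line), DESeq2 (499), sex as covariate, control mice only (545), tKO mice only (426), thinning (551), summing same-numbered mice of a line (719) and scaling by GC content (586) stayed within 1.5 times. With the replicate number as block there were 367 genes (196 higher and 171 lower in the Rbfox1 line), and the 11 cholesterol and lipid synthesis genes became 0. Only number 2 is shared by both lines. The deviations of those libraries from the mean of their line and genotype correlated by 0.066 in controls and 0.098 in tKO mice. Without genes of chromosomes X and Y these values were 0.00012 and 0.036. Deviations from a mean of 2 libraries hold much counting noise, so they cannot show whether a shared number pairs the lines. The single gene of the line by genotype interaction became 2 with DESeq2, 33 with no filter and 0 to 6 when each library was left out (6 without Rbfox1 control 2), and the 1335 genes of the population interaction became 450 with DESeq2. The difference in detected genes ranged from 824.3 to 1093 when each library was left out, with p = 0.0571 by the exact permutation test, the smallest that 4 against 3 allows. Of 3552 values of named genes under the alternatives 3420 kept their call and direction, 112 lost the call, 20 gained it and 0 changed sign with a call. The cause of these changes was not tested, except that filters change the number of genes tested. Depth limits genes of few counts such as Cldn5 and Ccr10.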

Other observations

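Of the interferon-stimulated genes 4 of 38 tested were higher in the Rbfox1 line and 6 in the Rbfox2 line, shares near the 12.4% and 11.6% of all genes. Mx1, an antiviral GTPase, had 51.0, 64.1, 54.7 and 50.5 CPM in the Rbfox1 line and 28.1, 20.1, 23.7 and 26.8 CPM in the Rbfox2 line (1.16, SE 0.14), and differed by 1.11 in mature mTEC. Mx2 (1.19), Irf9 (1.56) and Oas2 (0.94) were higher as well, while Isg15 (-0.31), Ifit1 (-0.48) and Ifit3 (-0.37) were lower. Of the genes of cholesterol and lipid synthesis 11 of 23 were higher in the Rbfox1 line and 2 in the Rbfox2 line, with Idi1, an isomerase of the pathway, at 1.25 (SE 0.28). The 11 fell to 0 in tKO mice alone, to 5 without Rbfox1 control 3, to 6 by DESeq2, and to 7 without each of Rbfox1 tKO 2, Rbfox2 control 1, Rbfox2 control 2 and Rbfox2 tKO 1. Basement membrane genes were higher in the Rbfox2 line in 12 of 27, Nid1 (-1.39), Lamc1 (-0.64) and Col4a2 (-0.43) among them, and 13 of the 27 had a more negative difference in immature than in mature mTEC. In tKO mice alone 4 of the 12 passed. Of the immediate early and dissociation list 10 of 33 were higher in the Rbfox1 line and 4 in the Rbfox2 line, and the 10 became 6 in control mice alone and 5 in tKO mice alone. Jun was higher (0.37) and Fos lower (-0.33), and the chaperone genes Hspd1 (0.42) and Hsp90aa1 (0.27) were higher.

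Insm1, a transcription factor of neuroendocrine cells, had 127, 161, 106 and 126 CPM in the Rbfox1 line and 55.8, 55.1, 64.7 and 69.3 CPM in the Rbfox2 line (1.10, SE 0.13), while Cpe, a prohormone processing enzyme, had 20.4, 27.2, 29.6 and 36.7 CPM against 69.6, 92.3, 108 and 78.2 CPM (-1.62, SE 0.15). Post-AIRE keratinocyte-like genes were higher in the Rbfox2 line in 3 of 26 in immature mTEC, near the 11.6% of all genes, and in 16 of 28 in mature mTEC, where 6.61% of all genes were. Mitochondrially encoded transcripts summed to 1496 to 2088 CPM in the Rbfox1 line and 2005 to 2986 CPM in the Rbfox2 line, which overlapped. Of the 15 genes of this list 9 had 0 counts in all 8 libraries, so the sum does not measure mitochondrial RNA as a whole. Among non-coding genes chosen after their values were seen, H19, an imprinted transcript, had means of 6.22 and 49.6 CPM (-2.97, SE 0.21), Firre means of 76.2 and 20.3 CPM (1.88, SE 0.15), and Gas5 means of 22.7 and 4.95 CPM (2.14, SE 0.29).

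The counts of the remaining lists follow. As genes higher in the Rbfox1 line, then in the Rbfox2 line, of those tested, these were 1 and 5 of 15 genes common to TEC, 3 and 1 of 14 neuroendocrine-like, 2 and 2 of 12 microfold-like, 2 and 0 of 10 enterohepatocyte-like, 2 and 0 of 8 ciliated-like, 0 and 1 of 3 ionocyte-like, 0 and 3 of 18 secretory and 1 and 1 of 10 muscle-like genes. For pathways they were 3 and 5 of 18 MHC class I, 2 and 2 of 11 MHC class II, 1 and 4 of 17 chemokine, 1 and 9 of 20 Wnt, BMP and Hedgehog, 3 and 2 of 18 hypoxia and 3 and 2 of 15 unfolded protein response genes. They were 5 and 2 of 20 splicing regulators, 4 and 1 of 6 RBFOX and driver locus genes, 0 and 3 of 5 mitochondrially encoded genes, 0 and 3 of 5 RNAs without poly(A) tails and 0 and 0 of 5 strain-variable genes.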
